A study of Bos taurus with 16 samples.

Results

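Peroxisomal fatty acid oxidation was followed in bovine liver through 9 genes, ABCD3, ACOX2, EHHADH, HSD17B4, ACAA1, SCP2, ACOT8, PEX11A and CAT. They were picked by gene symbol as transporters, enzymes and membrane proteins of the pathway, and all 9 were found among the 28786 gene names of the count table. All 9 also had a count over 4 in at least 1 library and were therefore tested, together with 19824 genes in all. Precision-cut liver slices (PCLS), thin living sections of a liver biopsy that keep hepatocytes together with the other liver cells, had been prepared from primiparous Jersey cows shortly after calving. Slices of each cow were cultured in William's Medium E for 18 h with 0.8% DMSO alone (CTR), with 100 µM WY-14643 (PPARα agonist), with 50 µM GW-501516 (PPARδ agonist) or with 100 µM rosiglitazone (PPARγ agonist), all agonists being dissolved in the same DMSO concentration. Each treatment was given in duplicate wells that were pooled, so 1 cow and 1 treatment made 1 RNA library, and cows 581, 576 and 567 gave 3 libraries per group. The study set another cow aside for low RNA integrity and because it was an outlier in a principal component analysis of the RNA-seq data. The paper does not give the number of that animal. Cow 574, whose libraries held the fewest gene counts, was taken to be that animal and entered no group comparison here. The agonist comparisons use the same 3 control libraries and are not independent of each other.

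Peroxisomes shorten very long chain and branched fatty acids and the side chains of bile acid precursors, which mitochondria cannot begin to oxidize. Acyl-CoA enters through ABC transporters, is oxidized in a step that makes hydrogen peroxide, is hydrated and dehydrogenated by a bifunctional protein, and is then cleaved by a thiolase, while catalase removes the peroxide. In mouse and rat liver this pathway is the textbook target of PPARα, and agonists such as WY-14643 make peroxisomes multiply there. In dairy cows the weeks after calving bring a surge of fatty acids from body fat to the liver.

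The 12 libraries held 3081981 to 10227330 counts in genes and 629 to 6418 counts in the 9 members (median 1834). Between 11.9 and 63.8% of the gene counts belonged to RN18S1, an rRNA gene, and 2 libraries stood apart in it, the PPARδ agonist library of cow 576 (63.8%, with 9993 genes detected against at most 17461) and the CTR library of cow 581 (45.8%). Of cow 581 the PPARα and PPARδ agonist libraries and of cow 567 the PPARα agonist library, whose labels carry a mark that the sources do not explain, had the highest gene counts and the lowest RN18S1 shares (11.9 to 16.4%). All 10 hepatocyte markers were detected in every group, and their summed level was 2160 to 5589 CPM in CTR, 1762 to 10323 under the PPARα agonist, 4080 to 5465 under the PPARδ agonist and 4479 to 6643 under the PPARγ agonist. Levels are TMM-normalized CPM, counts of 3′ end reads scaled to a common library size. They are compared between libraries for 1 gene and not between genes. Slices are bulk tissue, so fewer cells of a type and less RNA per cell cannot be told apart.

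No member was called in any of the 6 comparisons, each agonist against CTR and each pair of agonists, at a Benjamini-Hochberg adjusted p under 0.2 (edgeR quasi-likelihood F test), and DESeq2 called 0 as well. Over all genes edgeR called 106 genes (0.535%) under the PPARα agonist, 61 (0.308%) under the PPARδ agonist and 125 (0.631%) under the PPARγ agonist against CTR. With the cow as a replicate block these counts were 532 (2.68%), 402 (2.03%) and 567 (2.86%), and DESeq2 called 2.17, 3.55 and 2.58% of the genes it could adjust, in each case with 0 members. At an unadjusted p under 0.05, 2 members passed under the PPARα agonist (ACOX2 and ACOT8), 1 under the PPARδ agonist (ACOT8) and 0 under the PPARγ agonist, where 7.88, 7.82 and 6.79% of all genes passed. A count of 0 called among 9 members is near the background of adjusted calls.

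The fitted changes of the members scattered around 0. Their median log2 fold change was -0.16 under the PPARα agonist, 0.17 under the PPARδ agonist and 0.04 under the PPARγ agonist, against 0.12, 0.00 and 0.08 over all genes tested, and placing ACOT8 at its lower bound left the members' medians as they were. Among genes with a mean of at least 50 counts, the 7 members had medians of -0.16, 0.09 and 0.04 and the 8212 genes in all had medians of 0.22, 0.09 and 0.09. DESeq2's size factors lowered the median of those 8212 genes under the PPARα agonist from 0.22 to 0.10. Standard errors ran from 0.41 for SCP2 to 2.11 for PEX11A in the PPARα comparison, so the precision differed widely between members.

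**Figure D1:**
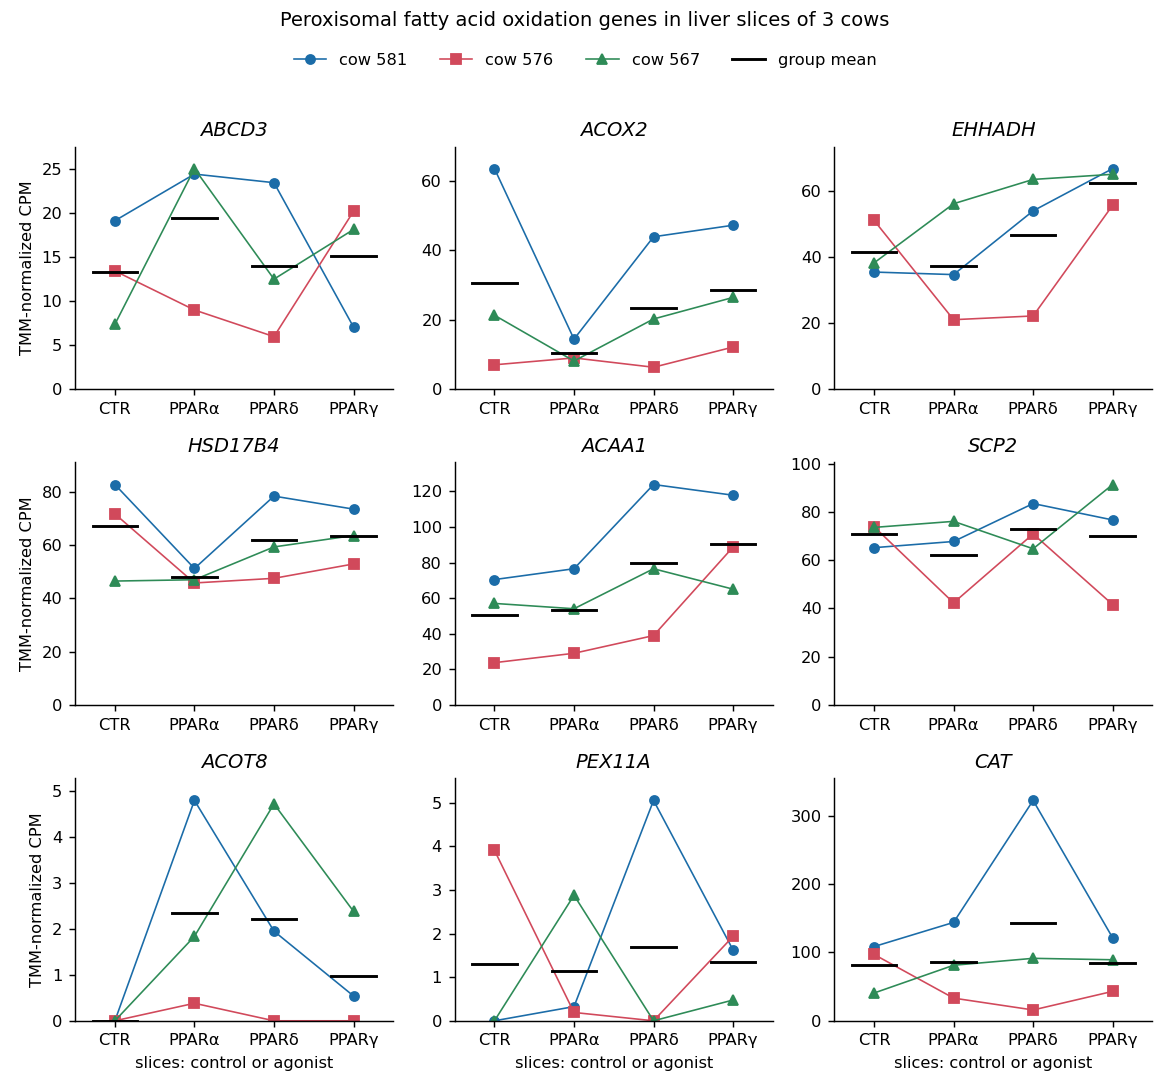
Level of each member (vertical axis, TMM-normalized CPM, starting at 0) in CTR slices and in slices under the PPARα, PPARδ or PPARγ agonist. Points are single libraries, lines join the libraries of 1 cow, and black bars are means of 3 cows. CAT runs from 15.8 to 323 CPM, both ends being PPARδ agonist libraries.

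ABCD3, the membrane transporter that brings long and branched acyl-CoA and bile acid precursors into the peroxisome, was at 19.1, 13.4 and 7.34 CPM in the CTR libraries of cows 581, 576 and 567. With the PPARα agonist it was at 24.4, 8.96 and 25.0 CPM, under the PPARδ agonist at 23.4, 5.94 and 12.5, and under the PPARγ agonist at 7.03, 20.2 and 18.1. The groups overlapped throughout. The log2 fold changes against CTR were 0.56 ± 0.72 (SE), 0.09 ± 0.72 and 0.19 ± 0.72, with adjusted p of 0.854, 1 and 1 (edgeR). The cows differed most under the PPARγ agonist, where cow 581 had a log2 ratio of -1.32 to its own control (1 CPM added to each value, as in all ratios to a cow's own control) and cow 567 one of 1.195.

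ACOX2, the oxidase that opens the degradation of branched fatty acids and bile acid side chains, had the only interval among the 8 members with one that lay to one side of 0 in a comparison with CTR without the block. CTR libraries held 63.7, 6.98 and 21.3 CPM in cows 581, 576 and 567, and PPARα agonist libraries held 14.4, 8.96 and 8.07. The PPARα agonist values were lower than the own control in cows 581 and 567 and higher in cow 576, whose control was the lowest of the 3. The group means were 30.6 ± 29.5 (SD, n = 3) and 10.5 ± 3.42 CPM. The fitted log2 fold change was -1.54 ± 0.70 (95% interval -2.95 to -0.12), which did not pass after adjustment over all genes (adjusted p = 0.623, edgeR). The block fit gave -1.03 ± 0.62 (adjusted p = 0.713). The size varied with the control libraries. It was -0.47 ± 0.76 without the CTR library of cow 581, -2.06 ± 0.71 without that of cow 576 and -0.43 ± 0.58 without the 2 libraries that stand apart (adjusted p = 0.958, 0.485 and 0.823). The summed level of the 10 hepatocyte markers under the PPARα agonist was 8313 against 3360 CPM in cow 581, 1762 against 2160 CPM in cow 576 and 10323 against 5589 CPM in cow 567, and its part in the ACOX2 values was not tested. The PPARδ agonist libraries held 44.0, 6.27 and 20.2 CPM of ACOX2 and those under the PPARγ agonist 47.3, 12.1 and 26.4. Their log2 fold changes were -0.37 ± 0.68 and -0.10 ± 0.68 (adjusted p = 0.932 and 1). Both changed sign, to 1.16 and 1.01, without the 2 libraries that stand apart, 1 of which is the CTR library of cow 581 that held the highest ACOX2 level of all 12.

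EHHADH, the L-bifunctional protein that handles dicarboxylic and straight-chain acyl-CoA, was higher under the PPARγ agonist than in CTR in every library of the 3 cows, a difference that did not pass the test. The 3 CTR libraries held 35.4, 51.1 and 38.2 CPM and the 3 PPARγ agonist libraries 66.8, 55.7 and 65.0, with no overlap. EHHADH and ACOT8 were the members whose agonist libraries all lay above the CTR libraries in any comparison, EHHADH under the PPARγ agonist, where 8.7% of all genes did so, and ACOT8 under the PPARα agonist, where 9.33% did. No member did so under the PPARδ agonist (4.59%), and none lay wholly below CTR (4.73, 4.77 and 6.01% of all genes under the PPARα, PPARδ and PPARγ agonist). The fitted change of EHHADH under the PPARγ agonist was 0.59 ± 0.47 (95% interval -0.36 to 1.54, adjusted p = 0.786, edgeR), equal to a 0.777 to 2.91-fold level. With all 16 libraries it was 0.09 ± 0.65 (adjusted p = 1), and in cow 574 EHHADH was lower under the PPARγ agonist than in the control. Macrophage, endothelial, stellate cell and fibroblast, lymphocyte and neutrophil markers were also lower under the PPARγ agonist than in the own control in all 3 cows. The 5 bile duct markers were higher in cow 581 (28.6 against 22.3 CPM). They were lower in cow 576 (62.4 against 153 CPM) and cow 567 (37.9 against 42.6 CPM). In cows 581, 576 and 567 the 9 macrophage markers summed to 121, 335 and 198 CPM against 909, 688 and 449.8 in CTR. The 8 endothelial markers summed to 173, 243 and 242 CPM against 674, 625 and 441, the 8 stellate cell and fibroblast markers to 125, 219 and 127 against 337, 1215 and 415, and the 8 lymphocyte markers to 13.8, 21.6 and 17.6 against 83.5, 63.6 and 76.3. The 10 hepatocyte markers summed to 5851, 6643 and 4479 CPM against 3360, 2160 and 5589. The part of these marker levels in the values of EHHADH and the other members was not tested. With the PPARα agonist EHHADH was at 34.6, 20.98 and 56.1 CPM and under the PPARδ agonist at 53.9, 22.1 and 63.5. In both, cow 576 was below its own control (log2 ratios of -1.24 and -1.17) and cow 567 above it (0.54 and 0.72), and the fitted changes were -0.16 ± 0.47 and 0.17 ± 0.47 (adjusted p = 0.973 and 0.979).

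HSD17B4, the D-bifunctional protein that serves very long chain and branched acyl-CoA, had the narrowest range relative to its level among the members, from 45.8 to 82.8 CPM over 12 libraries. CTR libraries held 82.8, 71.7 and 46.5 CPM and PPARα agonist libraries 51.2, 45.8 and 47.0. The PPARα agonist values were lower than the own control in cows 581 and 576 (log2 ratios of -0.68 and -0.64) and at the same level in cow 567 (0.02), and the fitted change was -0.48 ± 0.42 (adjusted p = 0.753). With the PPARδ agonist HSD17B4 was at 78.4, 47.5 and 59.3 CPM and under the PPARγ agonist at 73.5, 52.9 and 63.6. For these agonists the 95% intervals of the fold ran from 0.516 to 1.65 and from 0.529 to 1.69, so a 2-fold change in either direction lay outside them.

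ACAA1, the thiolase of straight-chain fatty acids, lay above the own control in all 3 cows under both the PPARδ and the PPARγ agonist. CTR libraries held 70.4, 23.7 and 57.02 CPM in cows 581, 576 and 567, PPARδ agonist libraries 124, 38.9 and 76.5, and PPARγ agonist libraries 118, 88.7 and 65.0. A gene was above the own control in 3 of 3 cows for 9.33% of all genes under the PPARδ agonist and for 15.8% under the PPARγ agonist. The log2 ratios to the own control were 0.81, 0.69 and 0.42 under the PPARδ agonist, a narrow spread, and 0.73, 1.86 and 0.19 under the PPARγ agonist, where cow 576 stood highest. The fitted changes were 0.67 ± 0.47 (adjusted p = 0.670) and 0.85 ± 0.47 (adjusted p = 0.744, edgeR). The block fit gave 1.00 ± 0.41 for PPARγ (95% interval 0.20 to 1.796), still not called (adjusted p = 0.355). Without the PPARδ agonist library of cow 576, ACAA1 was called in the block fit under the PPARγ agonist, at 0.94 ± 0.35 (adjusted p = 0.144, 6.34% of all genes being called), and without cow 576 the block value was 0.50 ± 0.37 (adjusted p = 0.704). Under the PPARδ agonist, too, macrophage markers (331, 110.2 and 203 CPM in cows 581, 576 and 567) were below the own control in all 3 cows. So were lymphocyte markers (41.7, 16.2 and 26.3 CPM), endothelial markers (383, 476 and 394 CPM) and neutrophil markers (13.9, 40.6 and 11.1 CPM). Stellate cell and fibroblast markers were higher in cow 581 (410 against 337 CPM) and lower in cows 576 and 567 (316 against 1215 and 412 against 415). Bile duct markers were higher in cows 581 and 567 (47.5 against 22.3 and 53.5 against 42.6 CPM) and lower in cow 576 (65.7 against 153). The part of these marker levels in the ACAA1 values was not tested. PPARα agonist libraries held 76.5, 28.99 and 54.0 CPM, and the fitted change was 0.08 ± 0.46 (adjusted p = 1), which was negative (-0.054) with DESeq2's size factors.

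SCP2, whose locus encodes the thiolase for branched acyl-CoA and bile acid precursors as well as sterol carrier protein, was the steadiest member in CTR slices, at 65.2, 74.0 and 73.7 CPM (CV 6.97%). It was at 67.8, 42.3 and 76.2 CPM under the PPARα agonist, at 83.6, 71.0 and 64.8 under the PPARδ agonist and at 76.8, 41.6 and 91.5 under the PPARγ agonist. Cow 576 had the lowest value under the PPARα and PPARγ agonists. The fitted changes were -0.19 ± 0.41, 0.04 ± 0.41 and -0.02 ± 0.41 (adjusted p = 0.945, 1 and 1), and a 2-fold change lay outside the 95% intervals under the PPARδ agonist (0.579 to 1.83-fold) and the PPARγ agonist (0.553 to 1.75-fold).

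ACOT8, a thioesterase that splits CoA from the shortened acyl chains before they leave the peroxisome, had 0 counts in all 3 CTR libraries. The slices of cows 581, 576 and 567 under the PPARα agonist held 59, 2 and 23 counts (4.797, 0.381 and 1.84 CPM), the PPARδ agonist libraries 17, 0 and 25, and the PPARγ agonist libraries 2, 0 and 10. Cow 576 held 2 counts at most. Against a floor of 3 counts over the CTR group, which was also the shallowest group, ACOT8 was at least 9.49-fold higher under the PPARα agonist, at least 8.37-fold under the PPARδ agonist and at least 2.89-fold under the PPARγ agonist, bounds that cover counting error only. The unadjusted p was 0.0239, 0.0252 and 0.0575 and the adjusted p 0.577, 0.594 and 0.743 (edgeR), so ACOT8 was not called. The CTR library of cow 574 held 1 count. In RefSeq's gene table for assembly ARS-UCD2.0, ACOT8 overlaps SNX21, and since the strand setting of the counting is not given, the ACOT8 counts are uncertain.

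PEX11A, which elongates the peroxisomal membrane ahead of division, was too sparse for a comparison, with 0 counts in 4 of 12 libraries. Its counts in cows 581, 576 and 567 were 0, 14 and 0 in CTR, 4, 1 and 36 under the PPARα agonist, 44, 0 and 0 under the PPARδ agonist and 6, 12 and 2 under the PPARγ agonist. Cow 576 held the most counts in CTR and under the PPARγ agonist, cow 567 under the PPARα agonist and cow 581 under the PPARδ agonist. The 95% interval under the PPARα agonist ran from 0.0453 to 16.8-fold. PEX11A overlaps PLIN1 in the same gene table, and its counts carry the same doubt about strand.

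CAT, catalase, which breaks down the hydrogen peroxide of the oxidase step, ranged more widely than any other member with counts in all libraries, from 15.8 to 323 CPM. CTR libraries held 109, 97.1 and 40.6 CPM in cows 581, 576 and 567, PPARα agonist libraries 144, 33.2 and 81.3, PPARδ agonist libraries 323, 15.8 and 91.4, and PPARγ agonist libraries 121, 43.1 and 89.3. Under every agonist cow 576 lay below its own control and cows 581 and 567 above theirs. The log2 ratios under the PPARδ agonist were 1.56 in cow 581, -2.54 in cow 576 and 1.15 in cow 567. The fitted changes were 0.07 ± 0.57, 0.81 ± 0.58 and 0.04 ± 0.58 under the PPARα, PPARδ and PPARγ agonist (adjusted p = 1, 0.678 and 1, edgeR). In the block fit the PPARδ value was 0.11 ± 0.40.

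**Figure D2:**
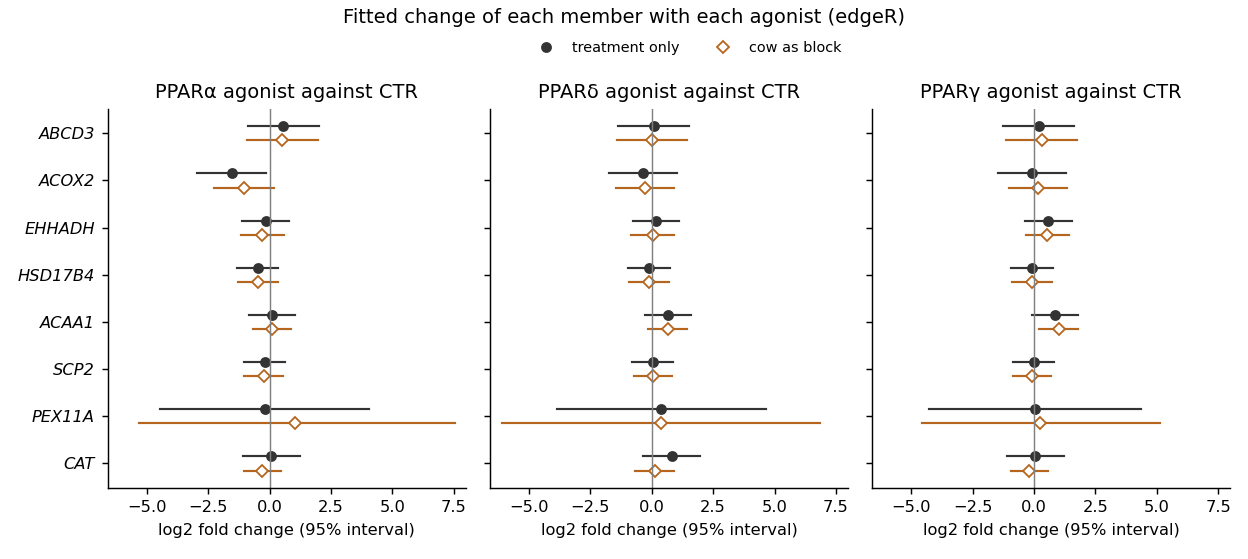
Log2 fold change of 8 members with each agonist against CTR (horizontal axis) with its 95% interval, from edgeR with treatment as the only term (filled circles) and with the cow as a block (open diamonds). ACOT8 is left out because it had no counts in CTR. The interval of ACOX2 under the PPARα agonist lies below 0 without the block (-2.95 to -0.12) and crosses 0 with it, and that of ACAA1 under the PPARγ agonist lies above 0 only with the block (0.20 to 1.796).

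The cows also differed in how many members lay above the own control. With the PPARδ agonist 7 of the 9 members were above the own control in cow 581, 6 in cow 567 and 1 (ACAA1) in cow 576. With the PPARα agonist the numbers were 6, 7 and 3, and under the PPARγ agonist 6, 9 and 4. Of the 8212 genes with a mean of at least 50 counts, 60.7, 51.0 and 44.1% were above it under the PPARδ agonist in cows 581, 567 and 576. Their shares were 59.9, 59.7 and 54.3% under the PPARα agonist and 54.9, 48.8 and 56.8% under the PPARγ agonist. Of the 7 members with such counts, the numbers were 5, 5 and 1 under the PPARδ, 4, 5 and 2 under the PPARα and 4, 7 and 4 under the PPARγ agonist. The medians over the 7 members with a mean of at least 50 counts were 0.35, -0.58 and 0.42 in cows 581, 576 and 567 under the PPARδ agonist and 0.05, -0.64 and 0.05 under the PPARα agonist. Over the 8212 genes with such counts the medians were 0.29, -0.21 and 0.02 under the PPARδ agonist and 0.29, 0.06 and 0.24 under the PPARα agonist. For the PPARγ agonist the medians were 0.16, 0.12 and 0.44 over the 7 members and 0.12, 0.13 and -0.02 over the 8212 genes. In 3 of 3 cows, ACOT8 was higher than the own control under the PPARα agonist (18.4% of all genes were), ACAA1 under the PPARδ agonist, and EHHADH and ACAA1 under the PPARγ agonist. ACOX2 was lower in 3 of 3 under the PPARδ agonist, by 0.52, 0.13 and 0.07 (10.3% of all genes were lower), and no other member was lower in all 3 cows under any agonist (10.4 and 11.6% of all genes were under the PPARα and the PPARγ agonist).

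Beyond the marker levels that were lower in all 3 cows, single libraries of cow 576 were unusual. Its PPARα agonist library was so in markers of other cells and its PPARδ agonist library in RN18S1 share. The CTR, PPARα and PPARγ agonist libraries of this cow had RN18S1 shares of 37.5, 33.3 and 33.2%, against a median of 34.8% over the 12 libraries. Endothelial markers (321, 541 and 203 CPM in cows 581, 576 and 567) and lymphocyte markers (30.9, 49.97 and 35.3 CPM) were below the own control in all 3 cows under the PPARα agonist as well. Bile duct markers (61.0, 163 and 55.9 CPM) were above it in all 3 cows. The cow 576 PPARα agonist library held 1905 CPM of the 4 neutrophil markers in the table, against 73.4 in its control and at most 52.0 in the PPARα agonist libraries of the other cows. The 8 stellate cell and fibroblast markers were at 2772 against 1215 CPM, the 9 macrophage markers at 1575 against 688 CPM, and the 10 hepatocyte markers at 1762 against 2160 CPM. Its PPARδ agonist library was the one with an RN18S1 share of 63.8%, although its hepatocyte markers summed to 5465 CPM against 2160 CPM in its control. The part of these differences in the values of the members was not tested.

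**Figure D3:**
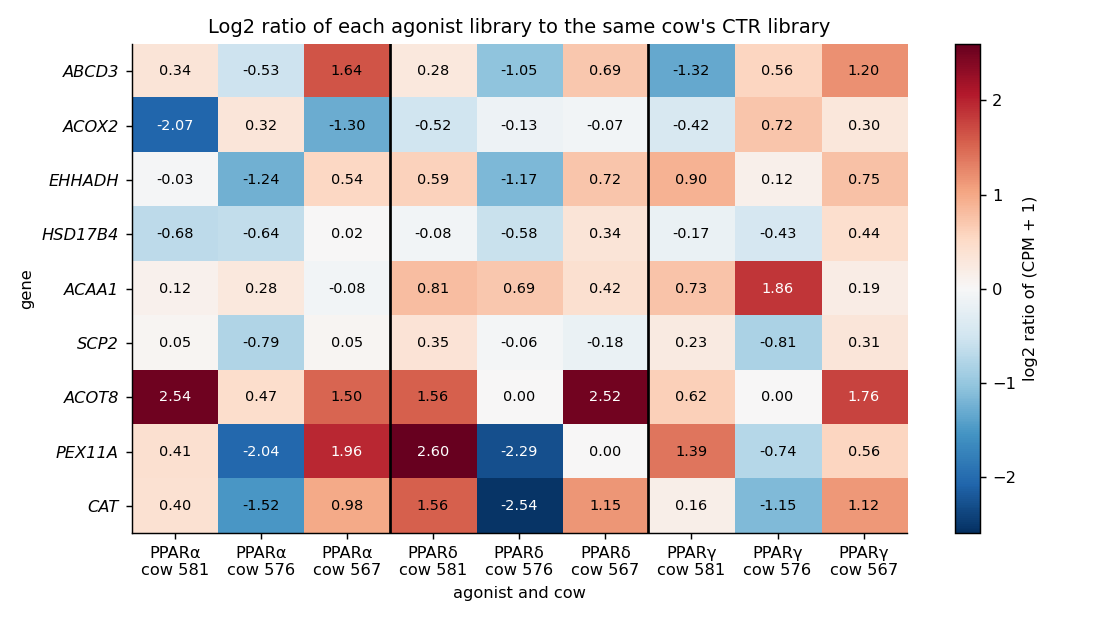
Log2 ratio of each member in an agonist library to the CTR library of the same cow (1 CPM added), red above and blue below the control, for the PPARα, PPARδ and PPARγ agonist and cows 581, 576 and 567. The middle column of each block, cow 576, is negative for CAT under every agonist (-1.52, -2.54 and -1.15), while cows 581 and 567 are positive.

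When cow 576 was left out, in a fit with the cow as block that was chosen after the values had been seen, 3 members were called against CTR. ACOX2 was lower under the PPARα agonist, at -1.79 ± 0.48 (95% interval -2.74 to -0.85, adjusted p = 0.00556, edgeR), with 21.3 and 63.7 CPM in the 2 controls and 8.07 and 14.4 CPM in the treated slices. ACOT8 was called under the PPARα agonist (adjusted p = 0.140), and CAT was higher under the PPARδ agonist, at 1.40 ± 0.35 (95% interval 0.73 to 2.08, adjusted p = 0.00621). This fit rests on 2 cows and called 15.7% of all genes under the PPARα agonist, 5.19% under the PPARδ agonist and 5.82% under the PPARγ agonist, against 2.68, 2.03 and 2.86% with all 3 cows. With only the PPARδ agonist library of cow 576 left out and no block, ACOX2 was called under the PPARα agonist (-1.54 ± 0.55, adjusted p = 0.195, 3.83% of all genes).

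Levels differed between the animals for 3 of the 9 members. The difference between the 3 cows, the cow term of the block fit, was tested after the values had been seen, and 4.67% of all genes passed at an adjusted p under 0.2. CAT averaged 174 ± 100.02 CPM in cow 581 (SD over its 4 libraries, n = 4), 47.3 ± 35.1 in cow 576 and 75.7 ± 23.8 in cow 567 (adjusted p = 5.58e-05, edgeR). ACOX2 averaged 42.3 ± 20.5, 8.58 ± 2.61 and 19.003 ± 7.78 CPM (adjusted p = 0.0248), and ACAA1 97.2 ± 27.6, 45.1 ± 29.8 and 63.1 ± 10.04 CPM (adjusted p = 0.0851). On these averages over control and agonist libraries, all 3 genes were highest in cow 581 and lowest in cow 576. In the CTR libraries alone, CAT was lowest in cow 567, at 109, 97.1 and 40.6 CPM in cows 581, 576 and 567. The cow term does not separate a level of the animal from a response to the agonists that differs between cows. The 4 libraries of ACOX2 in cow 581 (14.4 to 63.7 CPM) and in cow 576 (6.27 to 12.1 CPM) did not overlap. The adjusted p of the other 6 members ran from 0.805 to 0.985. CAT was called in all 12 fits that left out 1 library, ACOX2 in 11 (adjusted p = 0.214 without the CTR library of cow 581) and ACAA1 in 8 (up to 0.341, without the PPARα agonist library of cow 581). The 4 libraries of a cow are slices of 1 biopsy, so this compares 3 animals and not a condition.

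Direct comparisons of the agonists called no member. PPARα and PPARγ agonists had been given at the same 100 µM and the PPARδ agonist at 50 µM, and 0.338% of all genes were called for the PPARγ against the PPARα agonist, 0.156% for the PPARδ against the PPARα agonist and 0.0757% for the PPARγ against the PPARδ agonist. The block fit (1.27, 1.16 and 0.57%) and DESeq2 (2.23, 0.999 and 0.75%) also called 0 members there. DESeq2 gave an adjusted p to only 5972, 13217 and 10939 genes in these comparisons. A member with few counts may lie outside them and could then not be called. ACOX2 had the lowest p of the members among these comparisons in the fit without the block. It was higher with the PPARγ than under the PPARα agonist in each cow, at 47.3 against 14.4, 12.1 against 8.96 and 26.4 against 8.07 CPM. The fitted difference was 1.44 ± 0.70 (95% interval 0.04 to 2.85), which did not pass over all genes (adjusted p = 0.979, edgeR), and with the block 1.18 ± 0.61 (-0.02 to 2.39). Without cow 576 and with the cow as block, ACOX2 was called in that comparison (1.75 ± 0.48, adjusted p = 0.0201, 4.53% of all genes) and for the PPARδ against the PPARα agonist (1.47 ± 0.47, adjusted p = 0.134, 1.81% of all genes), and no member was called for the PPARγ against the PPARδ agonist (1.09%). EHHADH differed by 0.74 ± 0.47 and ACAA1 by 0.76 ± 0.46 between the PPARγ and PPARα agonists (adjusted p = 0.985 and 0.979), and their 95% intervals, -0.21 to 1.69 and -0.17 to 1.70, include both no difference and a difference of over 3-fold. With the cow as block the ACAA1 difference was 0.91 ± 0.40 with an interval above 0 (0.12 to 1.696), the lowest p of the members in these block fits, and was not called either (adjusted p = 0.730, edgeR). For SCP2 the interval of that difference was -0.66 to 1.00. Between the PPARγ and PPARδ agonists, whose doses differed, HSD17B4 and SCP2 were closest, at 0.03 ± 0.41 and -0.07 ± 0.41 (adjusted p = 1 for both).

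The members held 0.0305 to 0.0935% of the counts outside RN18S1. Their summed level was 285 to 445 CPM in CTR, 190 to 418 under the PPARα agonist, 208 to 737 under the PPARδ agonist and 316 to 513 under the PPARγ agonist, and the lowest value of each agonist group came from cow 576. CAT alone supplied 23.7 to 43.8% of the member counts in cow 581, 7.63 to 28.4% in cow 576 and 14.3 to 23.3% in cow 567. HSD17B4 supplied 10.6 to 18.6%, 16.7 to 24.1% and 13.3 to 16.3%, and these shares do not depend on how libraries are scaled. Among pairs of the 8 members with a mean of at least 10 counts, ACOX2 and ACAA1 had the highest Pearson correlation over the 12 libraries (0.73), which was 0.36 after the mean of each cow was removed, and EHHADH and CAT had the highest after that step (0.67). Outside the lists used here, RGMB (0.96), AKR1C4 (0.94), TST (0.92), POU3F1 (0.90) and LRG1 (0.90) had the highest Pearson correlation with the mean standardized level of those 8 members, out of 8112 genes. The 12 points come from 3 animals and share the scaling of their library, so these correlations are descriptions.

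With all 12 libraries, edgeR called other peroxisomal genes only with the cow as block. Of 23 further genes of peroxisomal β-oxidation, 22 were tested and none was called with any agonist (edgeR). With the cow as block, 1 was called as higher under the PPARα agonist, 0 under the PPARδ agonist and 2 under the PPARγ agonist. Over all genes that fit called 2.68, 2.03 and 2.86%. The median log2 fold change of the 15 with a mean of at least 50 counts was 0.29, 0.08 and 0.41 under the PPARα, PPARδ and PPARγ agonist, against 0.22, 0.09 and 0.09 over all such genes. NUDT7, which hydrolyses free CoA in the peroxisome, had 1 count in the 3 CTR libraries, 172 under the PPARα agonist, 76 under the PPARδ agonist and 87 under the PPARγ agonist. Per count of the library the ratios were 58.3 (95% counting interval 10.3 to 2315), 45.4 (7.91 to 1818) and 62.8 (11.0 to 2511). NUDT7 was called in the block fit under the PPARα agonist (adjusted p = 0.154) and the PPARγ agonist (adjusted p = 0.104). Of the 12 block fits without 1 library, 3 and 7 called it, and so did DESeq2 (adjusted p = 0.0751 and 0.0417). Without the block, edgeR called it in 2 and 1 of the fits without 1 library. It was also called without the 2 libraries that stand apart (edgeR, adjusted p = 0.0724 and 0.0557). The block fit did not call it under the PPARδ agonist (adjusted p = 0.402). From the same libraries the study had already reported NUDT7 as higher under all 3 agonists. SLC27A2, which activates and imports very long chain fatty acids, held 18.7, 0 and 25.0 CPM in CTR and 24.3, 53.6 and 24.8 under the PPARγ agonist, with the largest difference in cow 576. It was called with the block (2.10 ± 0.65, adjusted p = 0.0728), in 10 of the 12 fits without 1 library and not without the PPARγ agonist library of cow 576 (adjusted p = 1). CROT, which exports shortened acyl chains as carnitine esters, was lower under the PPARα agonist in all 3 cows, at 22.6, 29.2 and 26.5 against 75.2, 57.5 and 42.1 CPM. Of all genes, 10.4% were lower in all 3 cows under this agonist. It was not called (-1.16 ± 0.45, adjusted p = 0.515), and neither was LONP2, a peroxisomal protease, under the PPARγ agonist (1.30 ± 0.56, adjusted p = 0.667).

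In 3 other peroxisomal lists no gene was called by edgeR with or without the block. They were α-oxidation and ether lipid synthesis (6 genes, all tested), peroxins and membrane proteins (18 of 19 tested) and other oxidases and redox enzymes (12 genes, all tested). Their medians on the same basis were 0.12, -0.25 and 0.05 for the first, 0.46, 0.43 and 0.40 for the peroxins and 0.25, 0.42 and 0.50 for the oxidases and redox enzymes. PEX13, part of the import pore for peroxisomal enzymes, shared with ACOT8 an empty control group, with 0 counts in CTR against 72 under the PPARα agonist (at least 8.13-fold higher), 26 under the PPARδ agonist and 29 under the PPARγ agonist (adjusted p = 0.553, 0.613 and 0.636). PXMP4, a membrane protein (27 counts under the PPARα agonist), and DDO, D-aspartate oxidase (13, 15 and 10 counts), also had none in CTR. PEX16, a membrane assembly factor, was at 4.01 ± 2.11 under the PPARδ agonist (adjusted p = 0.647), and PEX3, another, at 3.05 ± 1.69 under the PPARγ agonist (adjusted p = 0.744). PIPOX, which oxidizes sarcosine and pipecolate, was at 5.17, 9.77 and 8.08 CPM in CTR. It was at 38.9, 29.7 and 18.3 CPM under the PPARδ agonist (1.91 ± 0.69, adjusted p = 0.477) and at 33.8, 13.6 and 27.6 CPM under the PPARγ agonist (1.69 ± 0.69, adjusted p = 0.616). Neither agonist group overlapped CTR, and 4.59 and 8.7% of all genes lay wholly above CTR under these agonists. PRDX5, a peroxiredoxin, was at 1.16 ± 0.58 under the PPARα agonist (adjusted p = 0.634). The values of GNPAT and AGPS, which start ether lipid synthesis, were 1.31 ± 0.87 under the PPARα agonist and -0.75 ± 0.68 under the PPARδ agonist, and those of HACL1 and PHYH of α-oxidation were -0.89 ± 0.90 under the PPARδ agonist and -0.28 ± 0.41 under the PPARα agonist (adjusted p of 0.691 to 0.884).

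Mitochondrial β-oxidation, the parallel pathway, held 1, 0 and 1 called genes of 17 under the PPARα, PPARδ and PPARγ agonist. Over all genes 0.535, 0.308 and 0.631% were called. The difference of this pathway from the members was not tested. The median over its 17 genes was 0.27, 0.27 and 0.26 under the PPARα, PPARδ and PPARγ agonist. Of 17 genes, all tested, HADHB, the β-subunit of the trifunctional protein, rose under the PPARα agonist (1.84 ± 0.49, adjusted p = 0.140) and under the PPARγ agonist (2.04 ± 0.49, adjusted p = 0.0651, edgeR). CTR libraries held 9.15, 58.9 and 55.5 CPM of HADHB, PPARα agonist libraries 143, 59.1 and 243, and PPARγ agonist libraries 139, 185 and 188. Both calls were lost without the CTR library of cow 581 (adjusted p = 0.901 and 0.497), which held the 9.15 CPM, and the PPARα call also without the CTR library of cow 576 (0.286) or that of cow 567 under the PPARα agonist (0.604). With all 16 libraries neither was called (adjusted p = 1 for both), nor with filterByExpr, a stricter filter on low counts (0.535 and 0.347). The PPARα call was also lost with DESeq2 size factors (0.201), without the 2 libraries that stand apart (1.36 ± 0.44, adjusted p = 0.213), with 16 libraries and the block (1.14 ± 0.43, adjusted p = 0.494) and without the 3 marked libraries, which leaves the library of cow 576 alone under the PPARα agonist (0.55 ± 0.49, adjusted p = 1). The block fit called 2, 1 and 3 genes of the list under the PPARα, PPARδ and PPARγ agonist, where 2.68, 2.03 and 2.86% of all genes were called. Among those of the list were ACADVL, the very long chain acyl-CoA dehydrogenase (0.98 ± 0.34, 1.40 ± 0.35 and 1.35 ± 0.34, adjusted p = 0.180, 0.0114 and 0.00978), and HADHA, the partner subunit of HADHB, under the PPARγ agonist (1.26 ± 0.37, adjusted p = 0.0436). The study had already reported higher ACADVL under the PPARδ agonist, HADHA under the PPARγ agonist and HADHB under the PPARα and PPARγ agonists, from the same libraries. By RT-qPCR it found higher ACADVL under the PPARγ agonist after calving. It states that RT-qPCR did not bear out the ACADVL rise under the PPARδ agonist. Without the CTR library of cow 581 the block fit called HADHB under the PPARγ agonist (adjusted p of at most 0.0449 over the 12 fits) but not under the PPARα agonist (0.500), and neither ACADVL with the PPARα or PPARδ agonist (1 and 0.463) nor HADHA (0.517). Over the 12 block fits without 1 library, ACADVL was called in 3 under the PPARα agonist, in 11 under the PPARδ agonist and in 10 under the PPARγ agonist (adjusted p of up to 0.347, reached when cow 576 lacked its PPARγ agonist library). HADHA was called in 10. CPT2, the inner membrane carnitine transferase, and ETFA, an electron transfer flavoprotein subunit, were not called, at 2.28 ± 0.85 under the PPARα agonist (adjusted p = 0.464) and 1.42 ± 0.64 under the PPARδ agonist (adjusted p = 0.604).

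**Figure D4:**
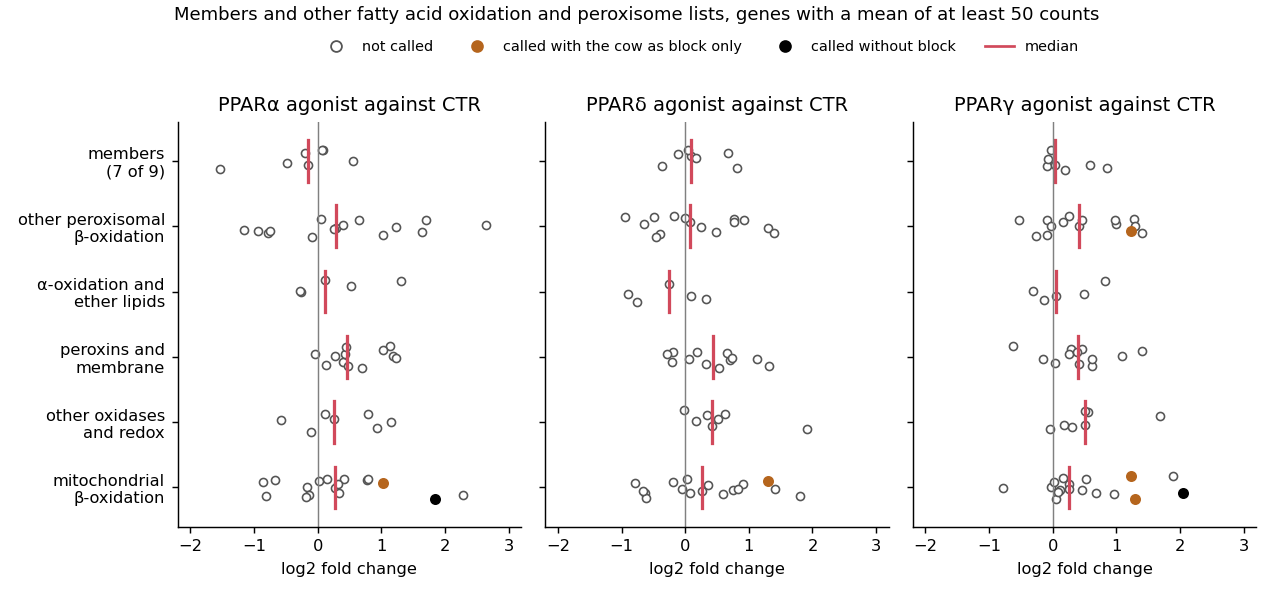
Log2 fold change against CTR (horizontal axis) of each gene with a mean of at least 50 counts in 6 lists, for the PPARα, PPARδ and PPARγ agonist. Open points were not called, brown points were called with the cow as block only and black points also without it (edgeR, adjusted p under 0.2), and red bars are medians. The 7 members shown have no filled point, and the black points are HADHB under the PPARα agonist (1.84) and the PPARγ agonist (2.04).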

How the data were processed

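Liver slices of 4 cows under 4 treatments gave 16 QuantSeq 3′ libraries. Per the methods, the authors used Trimmomatic 0.39 for trimming and aligned to ARS-UCD1.2 by STAR 2.7.1, and the deposited values are unnormalized counts of reads per gene. The methods name Ensembl annotation and StringTie 2.0, whereas the column names point to STAR's own gene counts and the genes are NCBI symbols. No source used here states the strand setting.

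The 12 libraries of cows 581, 576 and 567 were normalized by TMM and tested with edgeR 4.0.16 (glmQLFit with legacy=TRUE, glmQLFTest, R 4.3.3), treatment being the only term, with genes kept if any library had a count over 4. P-values were Benjamini-Hochberg adjusted over all genes tested in each comparison, with the study's threshold of 0.2. They measure the spread between slices of 3 animals. Alternatives were DESeq2 1.42.0, the cow as block, other scalings and filters, all 16 libraries, and left-out libraries. The libraries of a number come from the same animal, so the numbers pair them: the median correlation of same-cow deviations from the group means was 0.17 (-0.01 to 0.42, 18 pairs), against -0.08 for different cows and groups.

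Reads outside genes (43.0 to 69.9% of each of the 12 libraries) were left out. Errors of fold changes are edgeR standard errors with 95% intervals, and no interval was given where a group had no counts. A fold against an empty group was bounded with 3 counts over the group. The scripts were tested on simulated data. The members and the gene lists were chosen with earlier results of these data known. Named genes were the 9 members, the genes of each other list that were called, the 2 with the smallest p per list and agonist, and the 5 most correlated genes. No sequence is shown, since no table of sequences was at hand.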

Additional observations from a re-analysis of the deposited data

Results flagged for a closer look

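The 4 libraries of cow 574 entered no comparison. They held 772012 to 970406 counts in genes, and reads in no annotated gene made up 79.6 to 84.3% of each (29.1 to 54.1% for cows 581, 576 and 567). CAT, catalase, was above the control of this cow with every agonist. It had 88 counts in the CTR library and 245, 603 and 227 under the PPARα, PPARδ and PPARγ agonist, which are 3.33, 6.53 and 2.84 times the CPM of the control (95% counting intervals 2.602 to 4.302, 5.21 to 8.26 and 2.21 to 3.67). The direction was that of cows 581 and 567 and the opposite of cow 576. ABCD3, the acyl-CoA transporter, was 2.64 times its control under the PPARδ agonist and 2.55 times under the PPARγ agonist (61 and 51 counts against 22). SCP2, the branched-chain thiolase, was 2.02 and 1.30 times its control with the same agonists (229 and 128 counts against 108). EHHADH, the L-bifunctional protein, was at 0.590 times its control under the PPARγ agonist (0.474 to 0.732, 132 against 246 counts), the opposite direction to cows 581, 576 and 567. HSD17B4, the D-bifunctional protein, was below the control with every agonist, and furthest under the PPARγ agonist (0.368 times, 109 against 326 counts). With TMM over all 16 libraries these falls under the PPARγ agonist were smaller. EHHADH was then at 130 against 185 CPM and HSD17B4 at 108 against 245 CPM. ACOX2, the branched-chain oxidase, was at 0.640 times under the PPARα agonist (0.3998 to 1.01) and 1.36 times under the PPARδ agonist (0.963 to 1.94), and ACAA1, the straight-chain thiolase, at 0.648 and 1.28 times (0.464 to 0.898 and 0.996 to 1.66). ACOT8, a thioesterase, had 0 to 6 counts. Each value compares 2 libraries and has no replicate, and the intervals cover counting error only. The part of RNA integrity in them was not tested.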

How the results depend on the processing

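ACOT8 and PEX11A were near the detection floor, and 3 cows were compared. DESeq2, other scalings, other filters and 16 libraries called 0 members in every comparison, and the cow as replicate block changed no other call among members. Leaving out the 3 marked libraries also called 0, but leaves 1 PPARα agonist library, that of cow 576, which is assumed to vary like the other groups, so its PPARα values say nothing about stability. Leaving out cow 576 with the replicate block, added after seeing the data, called 2 members under the PPARα and 1 under the PPARδ agonist, 1 for PPARγ against PPARα and 1 for PPARδ against PPARα. Leaving out 1 library gave 0 to 1 member under the PPARα agonist and, with the block, 0 to 1 under the PPARγ agonist, in each case without the PPARδ agonist library of cow 576.

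Genes called under the PPARα, PPARδ and PPARγ agonist (106, 61 and 125) became 532, 402 and 567 with the replicate block, 320, 524 and 370 with DESeq2, 1090, 1008 and 1031 with DESeq2 and the block, 408, 340 and 332 without a filter, 0, 3 and 9 with filterByExpr and 0, 0 and 0 with 16 libraries. The last counts came with 580, 626 and 576 genes at an unadjusted p under 0.05, and the 0 with filterByExpr with 1147. Without the 3 marked libraries 308 and 461 were called with PPARδ and PPARγ, without the 2 that stand apart, also added after seeing the data, 300, 104 and 325, and without cow 576 (replicate block) 3032, 1001 and 1122. Leaving out 1 library gave 0 to 1002, 7 to 345 and 13 to 618, and with the block 76 to 1636, 118 to 754 and 225 to 1254. The extremes without the block came without the CTR library of cow 581 (0, 7 and 13) and without the PPARα agonist (1002) or PPARδ agonist (345 and 618) library of cow 576.

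No member was called where its log2 fold change changed sign. With DESeq2, ACAA1 (-0.054) and CAT (-0.065) did so for PPARα, SCP2 (-0.007) for PPARδ and PEX11A (-0.013) for PPARγ. With DESeq2 and the block, ACAA1 (-0.035), PEX11A (1.12) and CAT (-0.43) did for PPARα, EHHADH (-0.025), SCP2 (-0.0076) and ABCD3 (-0.083) for PPARδ, and ACOX2 (0.096) and CAT (-0.25) for PPARγ. With DESeq2 size factors in edgeR, ACAA1 (-0.054) and CAT (-0.063) did for PPARα, SCP2 (-0.0069) and ABCD3 (-0.0005) for PPARδ and PEX11A (-0.015) for PPARγ. With the replicate block, PEX11A (1.02) and CAT (-0.29) did for PPARα, ABCD3 (-0.0089) for PPARδ, and ACOX2 (0.15) and CAT (-0.20) for PPARγ. With RN18S1 left out SCP2 did (0.0081) for PPARγ. With 16 libraries, ACAA1 (-0.16) did for PPARα, PEX11A (-0.015) for PPARδ, and SCP2 (0.20) and PEX11A (-0.88) for PPARγ. With 16 libraries and the block, ACAA1 (-0.14) did for PPARα, PEX11A (-0.099) for PPARδ, and ACOX2 (0.13), SCP2 (0.11) and PEX11A (-0.67) for PPARγ. Without the 3 marked libraries, with 1 library under the PPARα agonist, ACAA1 (-0.74), ABCD3 (-0.51), CAT (-1.25) and, outside the members, ACADVL (-0.39) did for PPARα, and SCP2 (-0.084), PEX11A (-5.51), ABCD3 (-0.53) and CAT (-0.62) for PPARδ. Without the 2 libraries that stand apart, ACOX2 (1.16), HSD17B4 (0.20) and SCP2 (-0.013) did for PPARδ, and ACOX2 (1.01), HSD17B4 (0.089) and PEX11A (-0.55) for PPARγ. Without cow 576, EHHADH (0.27), SCP2 (0.047) and PEX11A (7.03) did for PPARα, HSD17B4 (0.12) for PPARδ, and HSD17B4 (0.16) and SCP2 (0.30) for PPARγ. The cause was not tested.

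Leaving out 1 library gave ranges across 0 for PPARα in EHHADH (-0.57 to 0.13), ACAA1 (-0.31 to 0.37), SCP2 (-0.36 to 0.020), PEX11A (-2.22 to 5.80) and CAT (-0.51 to 0.46). For PPARδ they were ACOX2 (-1.19 to 0.72), EHHADH (-0.14 to 0.48), HSD17B4 (-0.32 to 0.068), SCP2 (-0.065 to 0.12), PEX11A (-5.93 to 6.40), ABCD3 (-0.51 to 0.44) and CAT (-0.60 to 1.33). For PPARγ they were ACOX2 (-0.65 to 1.05), HSD17B4 (-0.29 to 0.14), SCP2 (-0.24 to 0.24), PEX11A (-0.55 to 6.11), ABCD3 (-0.10 to 0.57) and CAT (-0.28 to 0.36). Fitted values of PEX11A with an empty group depend on the prior count.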
